A study of Mus musculus with 8 samples.

Results

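The genes described here make the protein machinery that fuses vesicles with their target membranes: synaptotagmins (Syt), synaptotagmin-like proteins (Sytl), syntaxins (Stx), vesicle-associated membrane proteins (Vamp), SNAP proteins (Snap), syntaxin-binding proteins (Stxbp) and complexins (Cplx). They were chosen by symbol alone, as any of these family names, or Unc13, followed by a number and at most 1 letter. Of the 55536 genes in the count table, 61 matched, and 45 of these had a mean of at least 1 CPM over the 8 libraries. CPM is a gene's count scaled to a common library total, with totals rescaled for composition. No Unc13 gene could match, since their symbols carry no number of their own after Unc13. The rule also took in Snap91, a clathrin assembly protein that is no SNAP-25 relative.

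The libraries were made from polyadenylated RNA of alphaTC6, a mouse line of pancreatic alpha cells, which make glucagon, with the genotype labelled WT. Cells were reverse transfected with RNAiMax Lipofectamine for 48 h, carrying either a pool of siRNAs against Klf4, which encodes a zinc finger transcription factor, or a scramble siRNA. There were 4 libraries of each treatment, in 2 labelled batches. Batch 1 held scramble replicates 1 and 2 and Klf4 siRNA replicates 1, 2 and 4. Batch 2 held scramble replicates 3 and 4 and Klf4 siRNA replicate 3. What the batches were was not stated, every group is 1 cell line, and there was no library of untransfected cells. The study calls its libraries biological replicates without saying whether they came from separate cultures or transfections, so p-values measure the spread between these libraries. The extraction protocol speaks of islets although each sample is labelled as the cell line.

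Vesicle fusion is driven by SNARE proteins. A SNARE on the vesicle, such as Vamp2, zips together with a syntaxin and a SNAP protein on the target membrane, and this pulls the membranes into contact. Munc18 proteins (the Stxbp genes) hold and template the syntaxins, complexins clamp and assist the partly zipped complex, and synaptotagmins carry the calcium signal to it. In alpha cells this machinery releases glucagon granules, while related syntaxins and VAMPs serve traffic between the Golgi, endosomes, lysosomes and autophagosomes.

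KLF family proteins are known to bind GC-rich DNA with a CACCC core, so the sequence before the start of a few of these genes is shown with that core in capitals. The windows are the 250 bases upstream of a RefSeq start of transcription on GRCm38.p6, written 5′ to 3′ on the strand of the gene, with CACCC or its reverse complement GGGTG in capitals. For Syt2, Stx7 and Syt1 the table holds 2 windows each, and the one nearest the GENCODE gene start is shown and counted. The first 3 genes were lower after Klf4 siRNA, Stx17 was higher, and Syt1 and Vamp8 had the largest differences between batches. The windows lie at chr1:134646362-134646611 on the plus strand (Syt2), chr7:107370540-107370789 on the plus strand (Syt9), chr10:24149039-24149288 on the plus strand (Stx7), chr4:48124669-48124918 on the plus strand (Stx17), chr10:109010976-109011225 on the minus strand (Syt1) and chr6:72390668-72390917 on the minus strand (Vamp8).
Syt2: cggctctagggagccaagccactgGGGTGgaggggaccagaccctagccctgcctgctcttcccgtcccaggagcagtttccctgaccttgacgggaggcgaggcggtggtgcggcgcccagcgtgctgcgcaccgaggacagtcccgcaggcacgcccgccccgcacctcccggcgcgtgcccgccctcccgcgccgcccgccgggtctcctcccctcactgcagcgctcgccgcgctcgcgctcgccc
Syt9: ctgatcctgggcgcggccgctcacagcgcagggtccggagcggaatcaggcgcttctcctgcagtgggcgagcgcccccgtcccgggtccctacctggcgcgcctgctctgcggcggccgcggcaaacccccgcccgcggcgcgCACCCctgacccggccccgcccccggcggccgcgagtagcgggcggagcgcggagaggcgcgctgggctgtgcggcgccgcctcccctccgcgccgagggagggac
Stx7: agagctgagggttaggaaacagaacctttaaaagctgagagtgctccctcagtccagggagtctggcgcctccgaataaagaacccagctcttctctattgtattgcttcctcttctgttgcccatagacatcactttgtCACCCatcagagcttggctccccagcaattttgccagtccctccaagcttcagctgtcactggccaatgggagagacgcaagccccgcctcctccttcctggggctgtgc
Stx17: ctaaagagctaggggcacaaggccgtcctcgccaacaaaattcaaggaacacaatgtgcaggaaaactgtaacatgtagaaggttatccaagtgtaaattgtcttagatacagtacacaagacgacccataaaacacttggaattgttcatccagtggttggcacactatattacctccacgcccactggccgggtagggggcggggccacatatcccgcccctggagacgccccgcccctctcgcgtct
Syt1: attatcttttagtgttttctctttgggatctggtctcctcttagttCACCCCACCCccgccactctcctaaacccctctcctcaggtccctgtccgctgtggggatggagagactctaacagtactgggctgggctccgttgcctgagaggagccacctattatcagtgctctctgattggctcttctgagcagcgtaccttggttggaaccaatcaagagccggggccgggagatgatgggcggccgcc
Vamp8: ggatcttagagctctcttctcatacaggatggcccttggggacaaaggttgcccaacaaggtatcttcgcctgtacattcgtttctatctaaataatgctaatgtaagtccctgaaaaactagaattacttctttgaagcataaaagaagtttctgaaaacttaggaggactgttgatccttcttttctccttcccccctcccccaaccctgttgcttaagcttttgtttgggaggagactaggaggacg

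The windows of Syt2, Syt9 and Stx7 each held 1 CACCC on either strand, that of Syt1 held 2 in tandem, and those of Stx17 and Vamp8 held 0. G and C made up 76% of the Syt2 window and 80.4% of the Syt9 window, against 54% for Stx7, 52% for Stx17, 56.4% for Syt1 and 43.6% for Vamp8. Of the 45 members, 34 had a window in the table, and 24 of them (70.6%) held CACCC on either strand. The same letters stood in 52% of all 32817 windows of this length, so they are common. Among the 6 lower members with a window, Cplx2, Stx7, Syt2, Syt9 and Vamp4 held CACCC and Stx4a did not. The longer motif CCACACCC, which contains CACCC, stood in 3.19% of all windows on either strand and in 1 of the 34, that of Stx2. A match of letters is a description and shows no binding.

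The targeted gene checks the labels. In scramble replicates 1 to 4, Klf4 stood at 39.2, 35.1, 46.3 and 46.8 CPM. Under Klf4 siRNA it stood at 12.5, 11.5, 19.8 and 18.8 CPM. Each Klf4 siRNA library lay below each scramble library, and the fitted log2 fold change was -1.33 (SE 0.17, edgeR quasi-likelihood adjusted p = 0.0083, n = 4 per treatment). Leaving out scramble replicate 1 raised that adjusted p to 0.052, and the edgeR fit to batch 1 alone gave -1.39 with adjusted p = 0.10. Totals ran from 45954151 to 64185987 counts per library. All 8 alpha cell markers, Gcg among them, reached 1 CPM. Of 8 beta cell markers, 4 had 0 counts in all libraries (Ins1, Ins2, Pdx1 and Ucn3) and 2 reached 1 CPM, with a summed level of 121 to 152 CPM in scramble and 107 to 139 CPM in Klf4 siRNA libraries, most of it Nkx6-1. The summed markers of delta, PP, acinar and endothelial cells stayed under 0.43 CPM in each library. The 4 fibroblast markers, 2 of which reached 1 CPM, summed to 18.6 to 20.97 CPM in scramble and 19.2 to 26.9 CPM in Klf4 siRNA libraries, most of it Col1a2. The part of these markers in the results was not tested.

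Some members that carry regulated exocytosis in neurons and endocrine cells were among the most abundant of the 45, while others stood at the middle or near the bottom. Levels of different genes are compared as CPM per kilobase of merged exons, as the mean and SD over all 8 libraries. Cplx1, a complexin, stood highest at 428 ± 33.4 (SD, n = 8). Syt13, a synaptotagmin that does not bind calcium, had 117 ± 4.74, and Syt7, a slow calcium sensor of high affinity, had 79.3 ± 7.38. Cplx1 lay above both in each library.

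Among the SNAREs, Snap25, the SNAP protein of regulated exocytosis, had 41.9 ± 1.90 CPM per kilobase. Snap23, its counterpart in most other cells, had 6.19 ± 0.509, and the ratio of the pair within a library was 5.93 to 8.38. Vamp2 had 34.0 ± 2.63 and Stx16, a syntaxin of the trans-Golgi network and the highest of its family, 33.8 ± 2.57, which do not differ beyond their spread. Vamp3, the VAMP of recycling endosomes, had 19.8 ± 1.34, and Vamp2 exceeded it 1.54 to 1.93 times. The plasma membrane syntaxin best known in exocytosis, Stx1a, had 10.7 ± 0.606, close to the median of the 45 genes (10.6). The highest synaptotagmin-like gene was Sytl5 at 20.4 ± 1.41, a family whose members bind Rab27 on secretory granules. Of the 45 genes, 24 exceeded 10 CPM per kilobase, 7 lay under 2, and the lowest was Stx11, a syntaxin known from the granules of cytotoxic lymphocytes, at 0.320.

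Paralog pairs were unequal in these cells. Within a library, Cplx1 exceeded Cplx2 by 14.3 to 17.2 times per kilobase, and Syt7 exceeded Syt2 by 2.55 to 3.53 times. Syt2, a fast calcium sensor close to Syt1, had 25.7 ± 2.10 CPM per kilobase over the 8 libraries. These values pool all isoforms of a gene, and merged exons overstate the length of genes that use few of their exons.

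**Figure D1:**
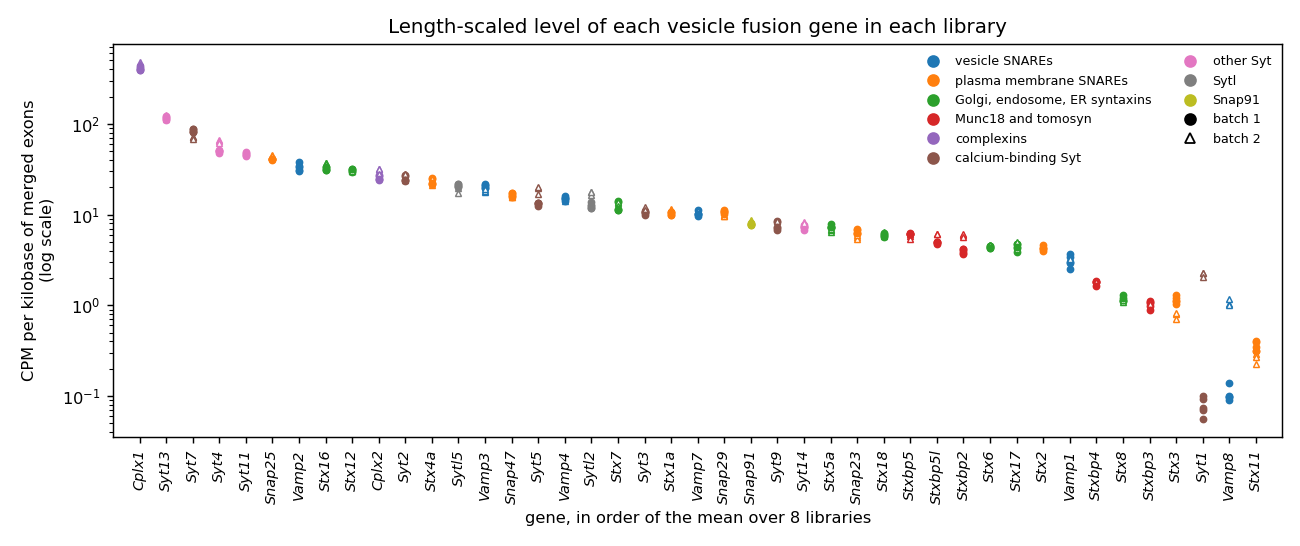
Length-scaled level of 43 of the genes (vertical axis, CPM per kilobase of merged exons, log scale) in each of the 8 libraries, ordered by the mean, with filled circles for batch 1, open triangles for batch 2 and colour for the role. Cplx1 stands at the top at 428 and Stx11 at the bottom at 0.320, and Syt1 and Vamp8 are the genes whose batch 2 points lie far above their batch 1 points.

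The remaining 16 matching genes lay under 1 CPM. Of these, 6 had 0 counts in all 8 libraries (Cplx4, Syt6, Syt8, Syt10, Syt15 and Vamp9), which allows a level of up to 0.00685 CPM over the libraries together, by 3 counts and counting error only. The other 10 had a mean of at most 0.314 CPM, and 3 of them (Stxbp6, Syt16 and Sytl1) passed the filter on low counts and were tested. Sytl4, the granuphilin of insulin granules, had 1 to 5 counts per library. Just inside the minimum were Vamp8 at 1.09 and Stx11 at 1.35 CPM. Both Vamp8 and Syt1 lay under 1 CPM in each batch 1 library and reached the minimum through batch 2.

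The first comparison asked which of these genes changed when Klf4 was knocked down. After Klf4 siRNA, 2 calcium sensors (Syt2 and Syt9), the late endosomal syntaxin Stx7, the plasma membrane syntaxin Stx4a and the complexin Cplx2 fell to a fitted 84.6% to 89.3% of their scramble level. Vamp4 and Syt13 fell to 91.9% and 93.7%, and Stx17 and Vamp2 rose to 114% and 112%. In all, 10 of the 45 members passed an edgeR adjusted p of 0.05 (22.2%), 3 higher and 7 lower, and 35 did not. The background was 11.7% of all 16333 genes tested and 14.8% of the 12722 genes with a mean of at least 1 CPM. By direction, 4.88% of all tested genes were higher and 6.81% lower. The members' log2 fold changes were small, from -0.24 to 0.19, with a median of -0.02 (all genes, 4.3e-05) and a median absolute value of 0.056 (all genes, 0.077). In 7 members the CPM of the treatments did not overlap, against 10.5% of all genes tested. These 10 calls were read with batch in the fit, and with no batch term edgeR called 4 of them (Syt2, Stx7, Syt9 and Stx4a), all lower. Without scramble replicate 1 the count was 6, all lower, and without scramble replicate 2 it was 6, with 1 higher. Over all genes the calls fell in the same fits, from 1909 to 409 with no batch term, 934 without scramble replicate 1 and 1012 without scramble replicate 2. In bulk RNA, fewer cells with a transcript and less transcript per cell cannot be told apart.

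**Figure D2:**
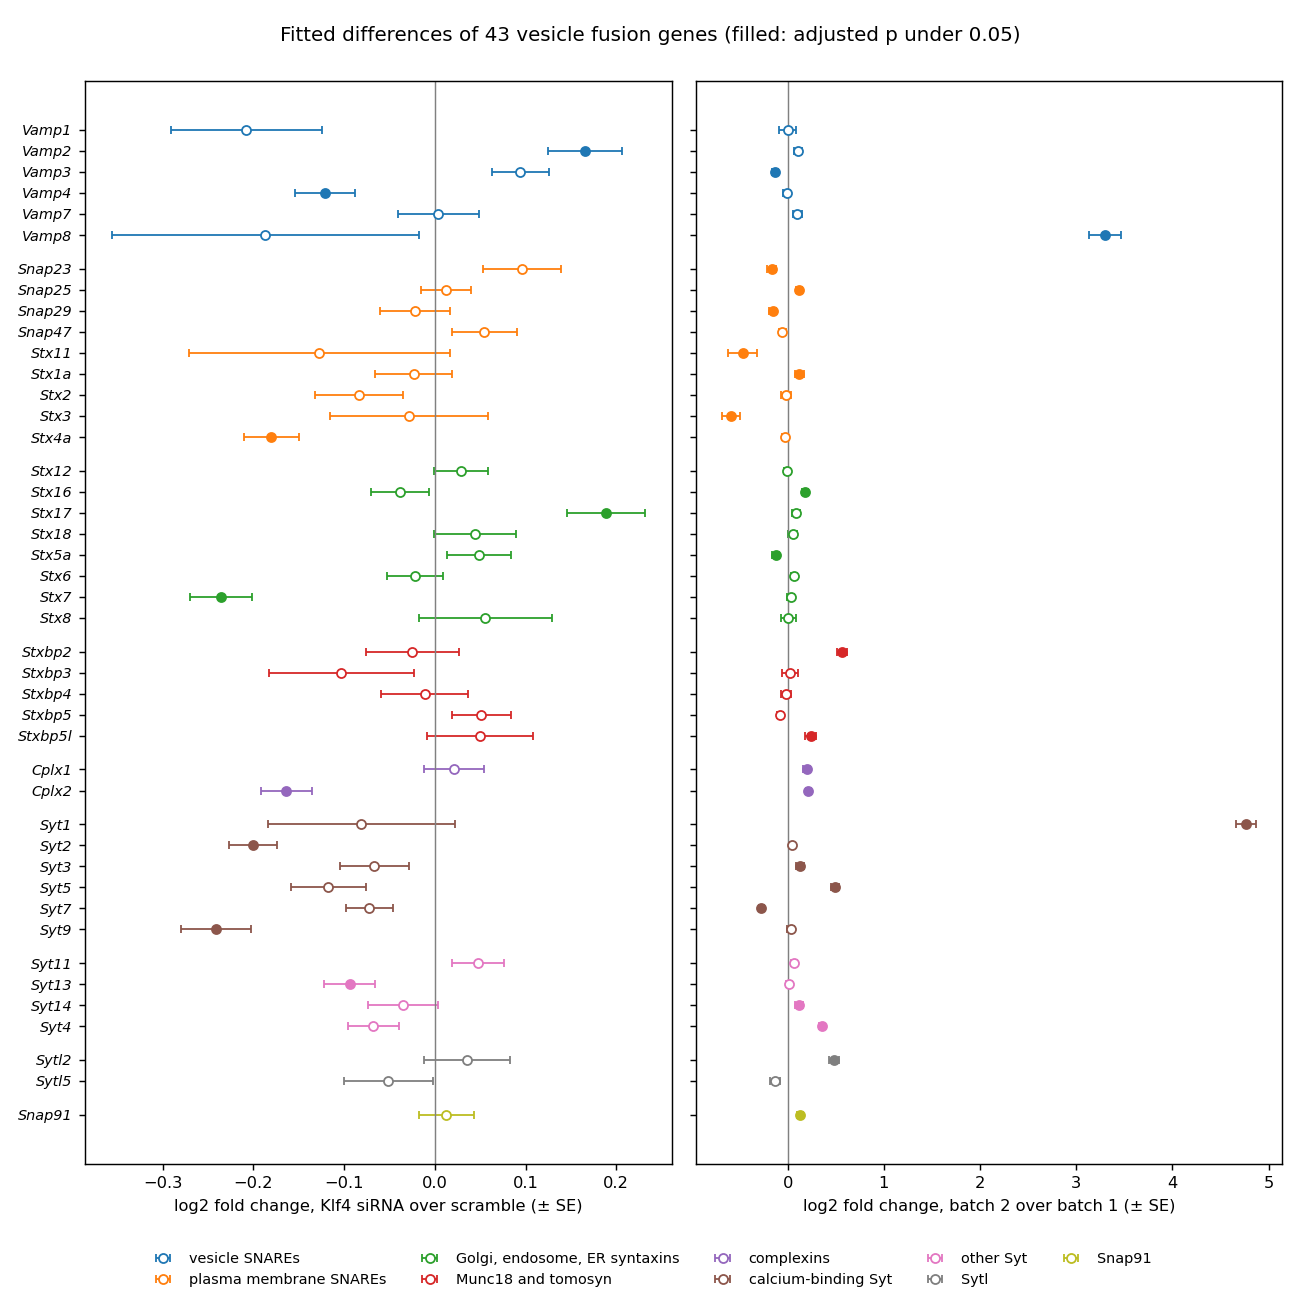
Fitted log2 fold change of 43 of the genes, Klf4 siRNA over scramble (left) and batch 2 over batch 1 (right), with bars of ± 1 SE, filled where the edgeR adjusted p was under 0.05 and coloured by role; the horizontal scales differ. On the left all points lie between -0.24 and 0.19, and on the right Syt1 (4.76) and Vamp8 (3.30) stand far from the rest.

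Of the 6 calcium-binding synaptotagmins, 2 fell and 4 did not pass the threshold, with a median log2 fold change of -0.10. Syt2 had 202, 211, 216 and 214 CPM in scramble replicates 1 to 4 and 178, 184, 184 and 182 CPM after Klf4 siRNA. The ranges did not overlap, and the group means were 211 ± 6.08 and 182 ± 3.03 (SD, n = 4 each). Its log2 fold change was -0.20 (SE 0.03, edgeR adjusted p = 2.8e-05), with -0.19 in batch 1 and -0.22 in batch 2. Syt9, a relative that also serves as a fast sensor on secretory granules, had 33.5, 32.6, 33.9 and 34.2 CPM in scramble and 27.1, 28.0, 28.5 and 29.3 CPM in Klf4 siRNA libraries. All Klf4 siRNA values were lower, and the log2 fold change was -0.24 (SE 0.04, edgeR adjusted p = 0.00024), with -0.23 and -0.26 in the batches. In scramble, Syt7 had 651, 652, 540.3 and 535 CPM, and after Klf4 siRNA 615, 615, 513 and 625 CPM. Its Klf4 siRNA libraries lay below the scramble libraries of their own batch, but the change of -0.07 (SE 0.03) missed the threshold (edgeR adjusted p = 0.079). Syt5, placed on dense-core vesicles, likewise missed it at -0.12 (SE 0.04, edgeR adjusted p = 0.076).

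Of the 4 synaptotagmins with no calcium binding known at their first C2 domain or at all, 1 fell. Syt13 had 459, 446, 466 and 452 CPM in scramble and 417, 422, 428 and 437 CPM after Klf4 siRNA. The groups did not overlap, yet the change was -0.09 (SE 0.03, edgeR adjusted p = 0.033), a level of 93.7% of scramble. The call was lost without scramble replicate 1 (edgeR adjusted p = 0.19), replicate 2 (0.083) or replicate 3 (0.091) and without Klf4 siRNA replicate 1 (0.086), 2 (0.081) or 3 (0.17). It was also lost in batch 1 alone (edgeR adjusted p = 0.13), with no batch term (0.13) and with no filter on low counts (0.054). Neither of the synaptotagmin-like genes, Sytl2 and Sytl5, passed the threshold.

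Of the vesicle SNAREs, 1 of 6 rose and 1 fell. Vamp2, the VAMP of granule and synaptic vesicle exocytosis, had 116, 119, 124 and 135 CPM in scramble and 132, 127, 140.3 and 144 CPM after Klf4 siRNA. The groups overlapped, but within each batch the Klf4 siRNA libraries lay above the scramble ones, with log2 differences of 0.19 and 0.12. Its fitted log2 fold change was 0.17 (SE 0.04, edgeR adjusted p = 0.014), and the call was lost without scramble replicate 1 (0.096) or scramble replicate 2 (0.068) and with no batch term (0.29). Vamp4, a VAMP of the trans-Golgi network and endosomes, had 70.3, 73.2, 71.7 and 73.8 CPM in scramble and 68.0, 69.3, 64.8 and 64.2 CPM after Klf4 siRNA. The groups did not overlap, and Vamp4 fell by 0.12 on the log2 scale (SE 0.03, edgeR adjusted p = 0.020), a call lost without scramble replicate 2 (0.12) or Klf4 siRNA replicate 3 (0.20), in batch 1 alone (0.19) and with no batch term (0.13). Vamp3 stood at 0.09 (SE 0.03, edgeR adjusted p = 0.059).

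Of the 10 syntaxins and SNAP proteins listed with the plasma membrane, some of which, like Snap29, also act elsewhere, Stx4a fell and 9 did not pass the threshold. Snap25 had 272, 275, 289.7 and 309 CPM in scramble and 276, 279, 298 and 278 CPM after Klf4 siRNA. These values overlap, and the log2 fold change was 0.01 (SE 0.03, edgeR adjusted p = 0.85). Stx1a had 26.3, 28.7, 31.0 and 30.2 CPM in scramble and 28.3, 26.6, 29.1 and 27.9 CPM after Klf4 siRNA, a change of -0.02 (SE 0.04, edgeR adjusted p = 0.81). The sign of either gene's value turned under some settings and neither direction is a result. Stx4a, syntaxin 4 of the plasma membrane, had 59.4, 57.8, 57.4 and 57.8 CPM in scramble against 51.0, 52.8, 50.5 and 52.0 CPM after Klf4 siRNA. The groups did not overlap, and the log2 fold change was -0.18 (SE 0.03, edgeR adjusted p = 0.00036), with -0.17 and -0.19 in the batches. Its exons overlap those of a gene on the opposite strand, and the use of strand in counting is not given in the sources used here, so reads of the pair cannot be told apart.

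Among the 8 syntaxins of the Golgi, endosomes and endoplasmic reticulum, 1 rose and 1 fell. Stx7, which acts in fusion of late endosomes, had 61.0, 63.2, 59.8 and 61.9 CPM in scramble and 50.4, 50.7, 55.1 and 51.5 CPM after Klf4 siRNA. No value overlapped, and Stx7 had a log2 fold change of -0.24 (SE 0.03, edgeR adjusted p = 7.4e-05). The difference was -0.29 in batch 1 and -0.14 in batch 2, where 1 Klf4 siRNA library stands for the treatment. Stx17, the syntaxin of autophagosome fusion with lysosomes, had 23.2, 25.3, 25.9 and 25.0 CPM in scramble and 27.8, 27.9, 29.5 and 26.3 CPM after Klf4 siRNA. All its Klf4 siRNA values were higher, with a log2 fold change of 0.19 (SE 0.04, edgeR adjusted p = 0.0063) that missed the threshold without scramble replicate 1 (0.072) or Klf4 siRNA replicate 3 (0.070), in batch 1 alone (0.079) and with no batch term (0.14).

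Of the complexins, which act on the SNARE complex, Cplx2 fell and Cplx1 did not pass the threshold. Cplx2 had 136, 131, 158 and 158 CPM in scramble and 121, 119, 137 and 123 CPM after Klf4 siRNA. Klf4 siRNA replicate 3 exceeded the batch 1 scramble libraries, so the groups overlapped, while within each batch the Klf4 siRNA values were lower. The log2 fold change of Cplx2 was -0.16 (SE 0.03, edgeR adjusted p = 0.00041), and with no batch term the adjusted p was 0.18. Cplx1, the more abundant paralog, had 861 to 1056 CPM in scramble and 866 to 996 CPM after Klf4 siRNA (log2 fold change 0.02, edgeR adjusted p = 0.77).

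**Figure D3:**
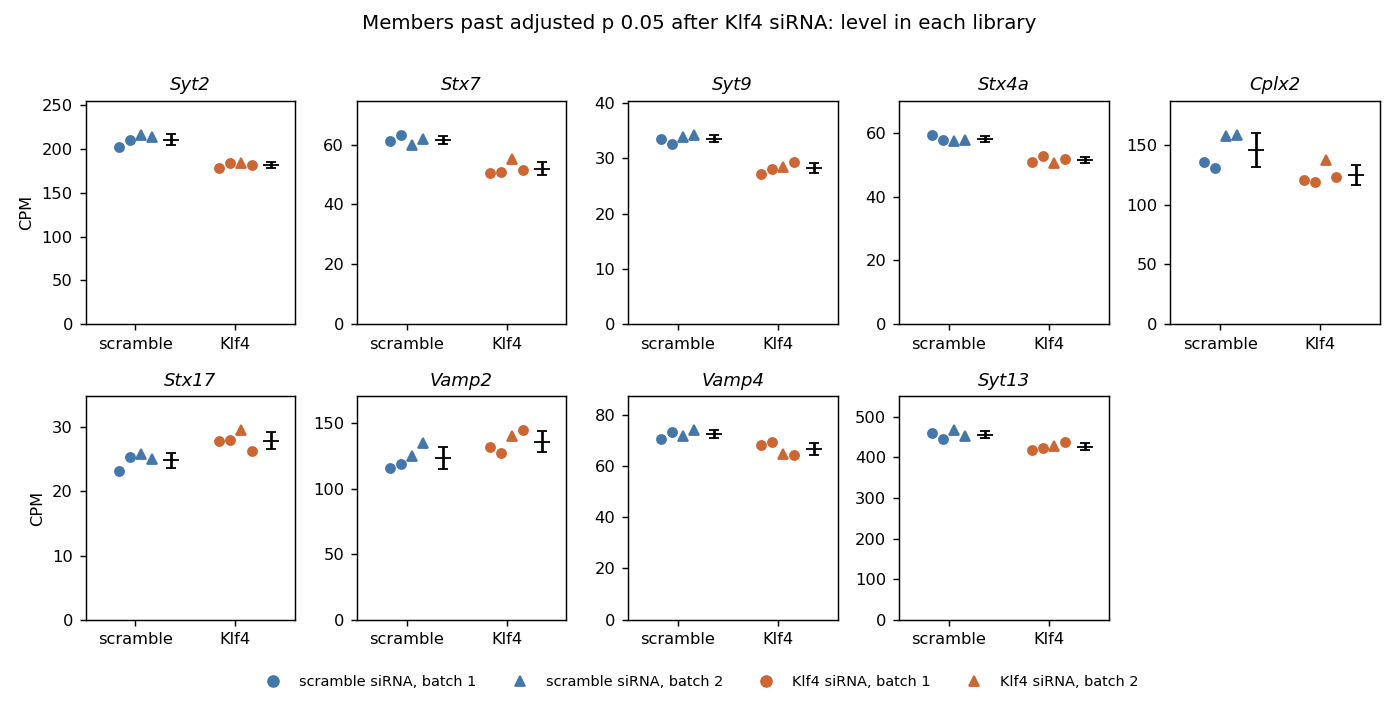
CPM of 9 genes past an edgeR adjusted p of 0.05 after Klf4 siRNA, in each library (vertical axes start at 0), with circles for batch 1, triangles for batch 2, blue for scramble and orange for Klf4 siRNA; black bars give the mean ± SD of the 4 libraries of a treatment. Syt2, Stx7, Syt9, Stx4a, Vamp4, Syt13 and Stx17 show no overlap of the treatments, and Cplx2 and Vamp2 overlap across batches.

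In the mouse annotation (GENCODE release M21, GRCm38) Syt2 spans chromosome 1 from 134646677 to 134762593, Vamp4 chromosome 1 from 162570515 to 162599084 and Syt13 chromosome 2 from 92915098 to 92956058. Stx17 lies on chromosome 4 from 48124915 to 48186507. Syt9 spans chromosome 7 from 107370728 to 107548656, Stx4a chromosome 7 from 127824294 to 127849019 and Stx7 chromosome 10 from 24149302 to 24190222. Vamp2 lies on chromosome 11 from 69088490 to 69092384 and Cplx2 on chromosome 13 from 54371349 to 54383917. All are on the plus strand.

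Genes that work beside these families were described from 3 further lists. Of 21 other SNAREs and disassembly factors, all tested, 3 rose and 1 fell, with a median log2 fold change of 0.03. Gosr1, a SNARE of the Golgi, fell from 37.4 ± 0.497 to 33.0 ± 1.34 CPM (log2 fold change -0.17, SE 0.04, edgeR adjusted p = 0.0040). Vps33b, a Munc18-like protein of late endosomal traffic, rose from 30.7 ± 1.13 to 34.5 ± 1.25 CPM (0.16, SE 0.04, edgeR adjusted p = 0.012). Of 28 priming, docking and tethering genes, 22 were tested, 2 fell, none rose, and the median was 0.03. The active zone scaffold Erc1 fell from 118 ± 3.16 to 108 ± 1.59 CPM (-0.14, SE 0.03, edgeR adjusted p = 0.0026), and Exph5, a Rab27 effector, fell from 4.58 ± 0.248 to 3.63 ± 0.399 CPM (-0.29, SE 0.08, edgeR adjusted p = 0.028). Unc13a, the priming factor Munc13-1, had 292 ± 27.7 and 271 ± 19.7 CPM (-0.05, SE 0.03, edgeR adjusted p = 0.31). Of 9 extended synaptotagmins and ferlins, 5 were tested and 0 passed the threshold, with log2 fold changes from -0.06 to 0.37 and a median of 0.20. The share called among tested genes was 19.0%, 9.09% and 0% in the 3 lists, in the order given. Over all genes tested it was 11.7%, with a median log2 fold change of 4.3e-05.

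The second comparison set the 3 libraries of batch 2 against the 5 of batch 1, with treatment in the fit. Syt1, the classic fast calcium sensor of synaptic vesicles, stayed under 1 CPM in batch 1 and was 27.2-fold higher in batch 2. Vamp8, a VAMP of endosomes and of exocrine granules, was 9.84-fold higher. In all, 23 of the 45 members passed the threshold (51.1%), 16 higher and 7 lower in batch 2. The background was high here too: 32.7% of all genes tested and 37.8% of those with a mean of at least 1 CPM were called, 16.8% of all tested genes higher and 15.9% lower. Without Syt1 and Vamp8, which reached the minimum level only through batch 2, 21 of 43 were called, 14 higher and 7 lower. The CPM of the batches did not overlap in 22 of the 45 members, and in 20 without that pair, against 29.4% of all genes. The median absolute log2 difference was 0.12 in the members and 0.118 over all genes. Only 1 Klf4 siRNA library lies in batch 2, and without it edgeR called 14 members, 12 higher and 2 lower, and 3843 of all genes in place of 5343.

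Some other transcripts also moved with batch. The 8 alpha cell markers, led by Gcg, summed to 5628 to 5939 CPM in batch 1 and 12576 to 13917 CPM in batch 2. Over the same libraries the beta cell markers summed to 107 to 123 and 139 to 152 CPM, the 2 ductal markers (mainly Sox9) to 1.07 to 1.57 and 3.74 to 4.63 CPM, and the 3 leukocyte markers (mainly Cd68) to 1.56 to 1.67 and 2.00 to 2.50 CPM. The 4 fibroblast markers did not separate, with 18.6 to 26.9 CPM in batch 1 and 19.2 to 20.9 CPM in batch 2. The sums of the delta, PP, acinar and endothelial markers also overlapped between batches. The part of these cell type markers in the differences between batches was not tested. Since the libraries of a batch share whatever a batch was, its several possible components cannot be told apart.

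Among the vesicle-side genes, Syt1 had 43, 22, 29, 48 and 33 counts in the batch 1 libraries and 1219, 1094 and 910 counts in batch 2. As CPM these were 0.770 and 0.467 in scramble and 0.589, 0.830 and 0.622 in Klf4 siRNA libraries of batch 1, against 19.0 and 18.9 in scramble and 17.3 in Klf4 siRNA of batch 2. The batches lay far apart in either treatment, with a log2 difference of 4.90 within scramble and 4.61 within Klf4 siRNA, and the fitted value was 4.76 (SE 0.10, edgeR adjusted p = 1.5e-17). Treatment moved Syt1 by -0.08 (SE 0.10, edgeR adjusted p = 0.71). Syt1 spans chromosome 10 from 108497650 to 109010982 on the minus strand. Vamp8, on chromosome 6 from 72385223 to 72390703 on the minus strand, had 18, 11, 11, 12 and 12 counts in batch 1 and 154, 159 and 124 in batch 2. Its means were 0.243 ± 0.0456 CPM (SD, n = 5) and 2.50 ± 0.213 CPM (SD, n = 3), a log2 difference of 3.30 (SE 0.17, edgeR adjusted p = 4.3e-12), and the treatment change was -0.19 (SE 0.17, edgeR adjusted p = 0.57). Both genes entered the 45 only through their batch 2 levels, so their batch p-values are not independent of that choice.

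The next largest rises in batch 2 were those of Stxbp2, Syt5, Sytl2 and Syt4. Stxbp2, a Munc18 protein, had 15.5, 17.3, 15.9, 17.3 and 16.3 CPM in batch 1 and 24.6, 25.4 and 23.6 CPM in batch 2 (log2 difference 0.57, SE 0.05, edgeR adjusted p = 2.8e-08). Syt5 rose from 31.1 ± 1.06 to 44.8 ± 4.01 CPM (0.50, SE 0.04, edgeR adjusted p = 1.1e-08). Sytl2, a Rab27 effector known on glucagon granules of alpha cells, rose from 175 ± 10.8 to 243 ± 10.1 CPM (0.48, SE 0.05, edgeR adjusted p = 1.6e-05). Syt4, a synaptotagmin of dense-core vesicles whose first C2 domain lacks calcium binding, rose from 194 ± 6.42 to 251 ± 8.94 CPM (0.35, SE 0.03, edgeR adjusted p = 4.8e-09). In these 4 genes, each batch 2 library lay above each batch 1 library. Cplx1 and Cplx2 both rose, by 1.15 and 1.16 times, as did Snap25 (1.08 times, edgeR adjusted p = 0.0035). Vamp2 did not pass the threshold between batches (log2 difference 0.11, edgeR adjusted p = 0.056).

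The 7 genes lower in batch 2 were Stx3, Stx11, Syt7, Snap23, Snap29, Vamp3 and Stx5a. Stx3, a syntaxin of apical membranes, had 6.39, 7.52, 6.94, 5.99 and 6.35 CPM in batch 1 and 4.57, 3.99 and 4.75 CPM in batch 2. The batches did not overlap, and Stx3 fell to 0.666 of its batch 1 level (log2 difference -0.59, SE 0.09, edgeR adjusted p = 3.9e-05). Syt7 fell from 632 ± 18.6 to 529.6 ± 14.2 CPM (-0.27, SE 0.03, edgeR adjusted p = 8.7e-08). Stx11 had 1.49 ± 0.167 and 1.11 ± 0.145 CPM (-0.46, SE 0.15, edgeR adjusted p = 0.023), a call lost without scramble replicate 1 (0.097) or Klf4 siRNA replicate 3 (0.21). Snap23 (-0.17), Snap29, a SNAP protein of endosomes and autophagosomes (-0.16), and Vamp3 (-0.13) had edgeR adjusted p-values of 0.0069, 0.0047 and 0.0040. Without Klf4 siRNA replicate 3 these became 0.069, 0.057 and 0.051. Exons of Syt7, Syt4 and Snap29 overlap a gene on the opposite strand, as do those of 7 of the 45 members in all, so part of their reads could belong to the partner.

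**Figure D4:**
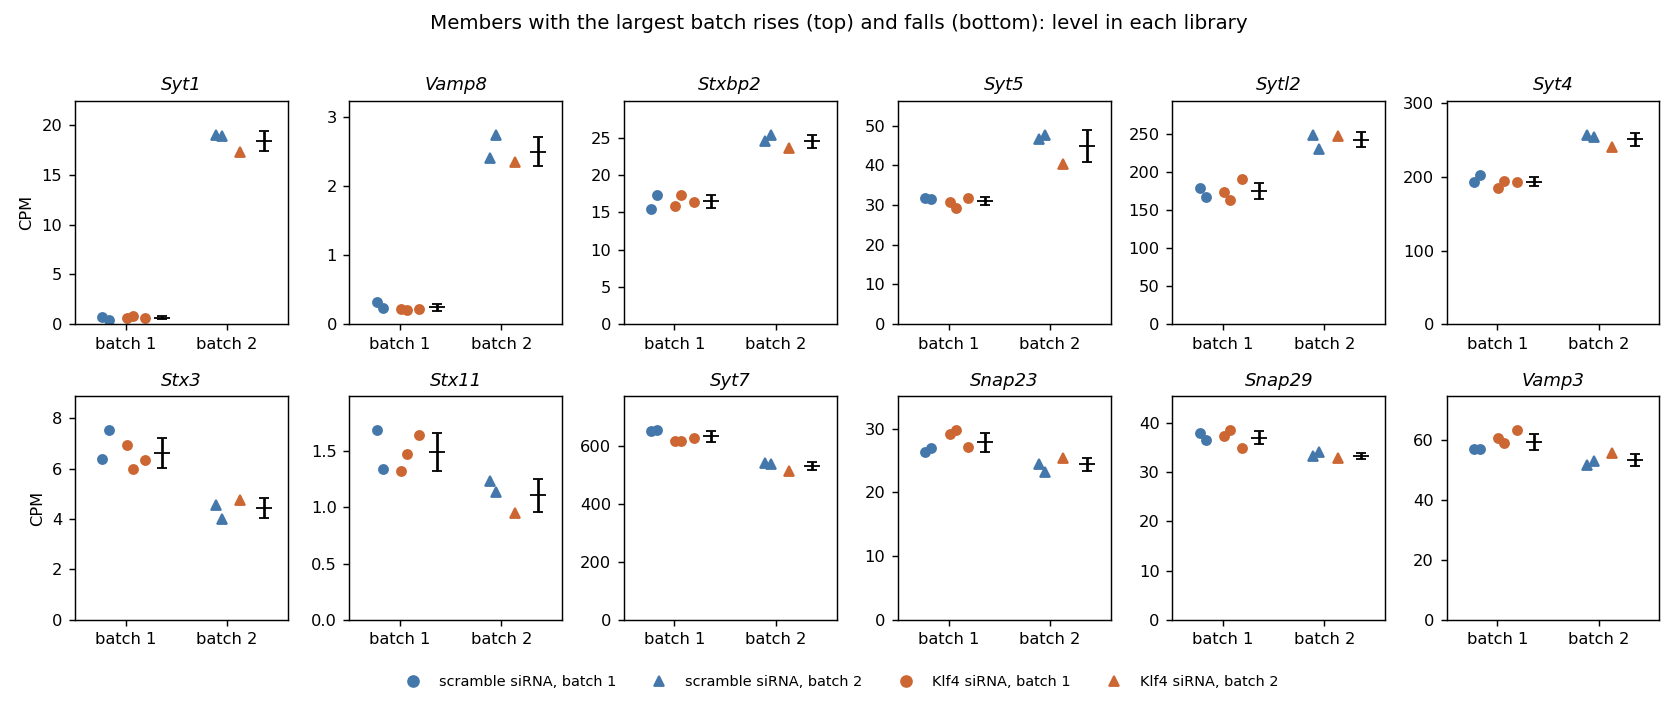
CPM of the 6 genes with the largest rises (top) and the 6 with the largest falls (bottom) in batch 2 over batch 1, among members past an edgeR adjusted p of 0.05, in each library (vertical axes start at 0), with blue for scramble and orange for Klf4 siRNA; black bars give the mean ± SD of 5 batch 1 or 3 batch 2 libraries. Syt1 goes from 0.656 to 18.4 CPM and Vamp8 from 0.243 to 2.50 CPM, while Stx3 goes from 6.64 to 4.44 CPM.

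The sets called in the 2 comparisons shared 2 genes, Cplx2 among them, and the other 8 treatment genes were not called between batches. Of these 8, Vamp2 missed the batch threshold narrowly (edgeR adjusted p = 0.056). The same overlap was not counted over all genes, so this count is a description only. Whether the change after Klf4 siRNA differed between batches was tested by an interaction term. No member passed the edgeR threshold (smallest adjusted p 0.999), nor did any of all genes (0%, smallest adjusted p 0.71). At an unadjusted p under 0.05 there were 3 members, against 540 of all 16333 genes. The 3 were Vamp1, Stx7 and Syt5. With 1 Klf4 siRNA library in batch 2 the term rests on that library. The direction of the change was the same in both batches in 28 of the 45 members, against 10588 of the 16333 genes tested, and in all 10 called members, as in 1907 of all 1909 called genes. Vamp1, a VAMP of fast exocytosis, had 34.7, 37.0, 32.8 and 31.9 CPM in scramble and 30.6, 29.4, 32.7 and 25.4 CPM after Klf4 siRNA. Its values overlapped, with a log2 difference of -0.34 in batch 1 and 0.01 in batch 2, and the fitted treatment change of -0.21 (SE 0.08) did not pass (edgeR adjusted p = 0.17).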

How the data were processed

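Poly(A) RNA was sequenced from 8 alphaTC6 libraries. The authors deposited 1 table of whole-number counts per gene, not normalized. FastQC, STAR, featureCounts, DESeq2 and the build mm10 are named, without versions, per the submitters' processing notes; how DESeq2 was used, the annotation and the use of strand are not given in the sources used here. All 55536 identifiers matched GENCODE release M21, which gave positions and exon lengths, and 0 columns were unmapped.

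Genes kept by filterByExpr on treatment (16333) were fitted in edgeR 4.0.16 (R 4.3.3) with TMM factors (0.964 to 1.02), a robust quasi-likelihood model with terms for treatment and batch (5 residual degrees of freedom). Two-sided p-values were Benjamini-Hochberg adjusted over all 16333, with 0.05 as threshold. SE is the absolute log2 fold change over the square root of F. Within-batch changes are differences of mean log2 CPM (prior count 2). Counts include PCR duplicates, so precision comes from the spread between libraries. Members and lists were chosen with earlier results of these data known. Named were members past the threshold, the 6 largest batch rises and falls among those past the threshold, the highest per family, a core exocytic set, and at most 3 called genes of each further list. Alternatives included DESeq2 1.42.0 and limma 3.58.1 (voom). Promoter windows are from RefSeq (GRCm38.p6); Vamp2 and Syt13 had no entry. Counts cover all 45 members, but values of 2 of them are not reported here.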

Additional observations from a re-analysis of the deposited data

Results flagged for a closer look

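In 5 of 54 sets of 4 libraries (27 named genes in each treatment), 1 library stood apart from the other 3, by a gap over the range past the 95% critical value of Dixon's test. Chance gives about 1 in 20 sets, here 2.7, but the 5 cannot be read against this, since some of these genes were named for their difference between batches. All 5 were in the Klf4 siRNA group and all were replicate 3, which alone of its group was in batch 2. It was highest for Syt1 (gap over range 0.986), Vamp8 (0.991), Syt4 (0.837) and Snap25 (0.868), and lowest for Syt7 (0.915). In all 5 genes its level lay nearer the 2 scramble libraries of batch 2 than the batch 1 libraries.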

How the results depend on the processing

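The count of 10 members called after Klf4 siRNA became 4 with no batch term, 6 without scramble replicate 1, 6 without scramble replicate 2 and 6 at an adjusted p under 0.01; leaving out 1 library at a time gave 6 to 10. The count of 23 between batches was 14 without Klf4 siRNA replicate 3, and 14 to 26 over the libraries left out. The interaction count stayed 0. Klf4 gave -1.39 (adjusted p 0.10) in batch 1 alone, -1.27 (0.052) without scramble replicate 1, and -1.46 to -1.24 over the libraries left out. With a replicate block, 7 members were called, each also called with the batch term; Vamp4 (adjusted p 0.064) and Syt13 (0.059) were among those lost. Deviations of same-numbered libraries correlated at 0.49, 0.42 and 0.72 for replicates 1 to 3, each within 1 batch, and at -0.34 for replicate 4, split between batches; pairing beyond a shared batch was not shown.

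Of 221 treatment values for named genes under other settings, 181 kept direction and side of the threshold, 32 lost the call, 3 gained it (Syt7, adjusted p 0.029 with DESeq2, 0.047 with voom, 0.044 at a mean of at least 5 CPM) and 5 reversed. The reversed were Stx1a, at 0.0024 in batch 1 alone, 0.00099 without scramble replicate 2 and 0.0049 without Klf4 siRNA replicate 3 (-0.064 to 0.0049 over the libraries left out), and Snap25, at -0.018 with no batch term and -0.016 with the replicate block. Syt2, Stx7, Syt9 and Stx4a were called in all 17 settings. Of 166 batch values, 160 were unchanged in this sense and 6 lost the call. The count without Syt1 and Vamp8 was added after seeing the data. Levels near 1 CPM rest on few counts.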

Other observations

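Of the 16 matching genes under 1 CPM, 10 had any counts, and 3 of these, chosen after their values were seen, had their highest counts in the 3 batch 2 libraries. Among all genes tested, the batches did not overlap in 29.4%. Vamp5, which lies beside Vamp8 on chromosome 6 (72368794 to 72380468, minus strand), had 9, 15 and 14 counts in batch 2 and 0 to 3 in batch 1. Syt17 had 17, 10 and 12 counts in batch 2 and 1 to 7 in batch 1. Stxbp6, the SNARE-binding protein amisyn, had 29, 21 and 20 counts in batch 2 and 4 to 10 in batch 1.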
